A study of Mus musculus with 6 samples.

Results

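The genes of pyruvate entry and of the citric acid cycle were compared between mouse astrocytes from brains into which small cell lung cancer (SCLC) had been grafted and astrocytes from sham-injected brains. The 39 genes were listed by name from their place in the pathway, with earlier results of these data known: the carrier that brings pyruvate into mitochondria, the pyruvate dehydrogenase complex with its kinases and phosphatases, pyruvate carboxylase, the enzymes of the cycle, their cytosolic counterparts, and the carriers and shuttles that link both compartments. All 39 were among the 14359 genes tested, out of 35127 genes summed from the files. RNA-seq libraries came from 3 samples of tumour-associated astrocytes, isolated from SCLC allografts in the brain (tumour 1 to 3), and from 3 samples of control astrocytes, isolated after a sham injection into the brain (sham 1 to 3). SCLC is a neuroendocrine carcinoma of the lung, and brain metastases are frequent in it. The genotype, strain, age and sex of the animals, the tumour cells grafted, the time after injection, the way astrocytes were isolated and any pooling of animals are not stated by the sources at hand. Nothing in the labels says that the libraries of a group came from separate animals or cultures. The p-values thus weigh the group difference only against the spread of these libraries within groups, and that spread may be technical.

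Pyruvate made by glycolysis in the cytosol is carried into mitochondria by a carrier of 2 different subunits, the products of Mpc1 and Mpc2. The pyruvate dehydrogenase complex turns it into acetyl-CoA, which citrate synthase feeds into the citric acid cycle; kinases (the Pdk genes) switch the complex off by phosphorylation and phosphatases (the Pdp genes) switch it on again. Astrocytes are known for running glycolysis and exporting lactate, and for pyruvate carboxylase, which neurons largely lack and which refills the cycle from pyruvate.

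Depth was similar in all libraries, at 22133723 to 25800897 estimated reads. The tumour libraries nearly coincided with each other, as did sham 1 and 2, while sham 3 stood apart: over the tested genes the log2 difference had a root mean square of 0.322 to 0.352 within these near pairs and 0.795 to 0.802 between sham 3 and the other sham libraries, against 0.734 to 0.749 between tumour and sham libraries. Reads on the mitochondrial genome took 4.05% to 4.23% in the tumour libraries, 6.66% and 6.20% in sham 1 and 2, and 4.20% in sham 3. All 10 astrocyte markers were present, with summed levels of 5388 to 5473 CPM (reads of a gene scaled to the size of its library) in the tumour libraries. In sham 1 to 3 the sum was 7461, 7504 and 4309 CPM, so the tumour libraries lay below sham 1 and 2 and above sham 3. Single astrocyte markers moved in both directions, with Aldh1l1 at 334 to 345 CPM beside tumours and 234 to 279 CPM after sham injection. Gja1 had 520 to 541 CPM beside tumours and, in sham 1 to 3, 1247, 1240 and 702 CPM. The 14 neuroendocrine tumour markers summed to 132 to 136 CPM beside tumours and 119 to 164 CPM after sham injection; Grp was at 0 throughout, and Epcam had 0.233 to 0.326 CPM beside tumours and 0 in the sham libraries. Sums of 11 microglia and macrophage markers were 129 to 134 CPM against 97.0 to 121 CPM, with Cd68 at 40.4 to 45.1 against 5.23 to 10.1 CPM, Tmem119 at 82.1 to 109 CPM in all libraries, and Ptprc at most 0.0452 CPM. The complement genes C1qa, C1qb and C1qc went the other way against sham 1 and 2, with C1qa at 0.845 to 1.09 CPM beside tumours and, in sham 1 to 3, at 3.75, 4.12 and 0.631 CPM. The 8 fibroblast and mural markers summed to 3762 to 3773 CPM against 3631 to 5976 CPM. Oligodendrocyte lineage (468 to 483 against 424 to 555 CPM) and neuronal sums (169 to 171 against 152 to 219 CPM) overlapped between the groups. So did endothelial (607 to 616 against 543 to 641 CPM) and ependymal sums (114 to 117 against 82.3 to 169 CPM). These overlaps came from sham 3. In the fibroblast and mural, oligodendrocyte lineage and neuronal sums, sham 1 and 2 lay below all tumour libraries and sham 3 above them. In the endothelial and ependymal sums sham 1 and 2 lay above all tumour libraries and sham 3 below them. Rbfox3 and Cldn5 were at 0 in every library, but the neuronal Stmn2 was at 79.2 to 135 CPM and the endothelial Cdh5 at 494 to 614 CPM. Single neuronal markers separated the groups in both directions. Gad1 was at 5.89 to 6.65 CPM beside tumours and 1.76 to 2.14 CPM after sham injection, and Tubb3 at 2.24 to 2.64 against 4.50 to 6.04 CPM. Single oligodendrocyte lineage and fibroblast markers also separated the groups in both directions. Pdgfra was at 248 to 260 against 127 to 196 CPM, and Olig1 at 33.2 to 37.1 against 48.3 to 170 CPM. Dcn was at 152 to 154 against 52.2 to 135 CPM, and Col1a1 at 942 to 952 against 1104 to 1705 CPM. The part of other cells in the results below was not tested. In such bulk samples, fewer cells of one type and less RNA per cell cannot be told apart.

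Of the 4 kinase genes that switch off pyruvate dehydrogenase 2 rose and 0 fell, while of the 12 cycle enzymes 7 fell and 0 rose. A gene was called higher or lower when its Benjamini-Hochberg adjusted p in edgeR's quasi-likelihood test over all tested genes was below 0.05. Of the 39 genes 4 rose in the tumour libraries, namely Pdk1, Pdk4, Me1 and Gpd1, and 17 fell; over all tested genes 10.5% were called higher and 10.4% lower. The share that rose (10.3%) was thus near the background, and the share that fell (43.6%) was above it. The median log2 fold change of the 39 genes, tumour over sham, was -0.25, beside -0.02 over all tested genes. It lay below 0 in 30 of the 39, or 76.9%, beside 51.8% of all tested genes. In 26 of the 39 genes the tumour and sham values did not overlap, where 44.1% of all tested genes do so. The falls were small, to between 0.633 and 0.867 of the sham level, while the rises reached 4.19-fold.

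All 21 calls were kept without sham 3, and most were lost on leaving out any 1 tumour library. Of the 21 called genes only Pdk1 was called whichever library was left out. Without tumour 1 the test called 1 of the 39 higher and 0 lower (3.73% and 2.44% of all genes), without tumour 2 it called 2 and 3 (3.69% and 2.64%), and without tumour 3 it called 1 and 0 (3.7% and 2.6%). Without sham 1 it called 3 and 7 (5.83% and 5.20%), and without sham 2 it called 3 and 6 (5.65% and 4.75%). Without sham 3 it called 5 and 24, but then 29.1% of all genes were higher and 28.6% lower. The near libraries were also summed, leaving 1 tumour and 2 sham values. Then 0 genes in all were called by edgeR, and 0 by limma-voom. In DESeq2 0.530% of genes were higher, Pdk1 alone among the 39, and 0.0671% lower. With a replicate block 4 of the 39 were higher and 4 lower, beside 5.77% and 4.23% of all genes. Other settings moved fewer calls: 4 and 17 were called with RLE size factors (10.5% and 10.3% of all genes), 4 and 16 with limma-voom (11.4% and 10.2%), 4 and 14 without a filter on low counts (6.4% and 6.52%) and 4 and 12 with transcript length offsets (7.42% and 6.96%). DESeq2 kept all 21 calls (12.6% of genes higher and 12.3% lower), as did unscaled library sizes (9.18% and 13.5%). The median of the 39 genes stayed between -0.31 and -0.22 in the 16 alternatives run.

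**Figure D1:**
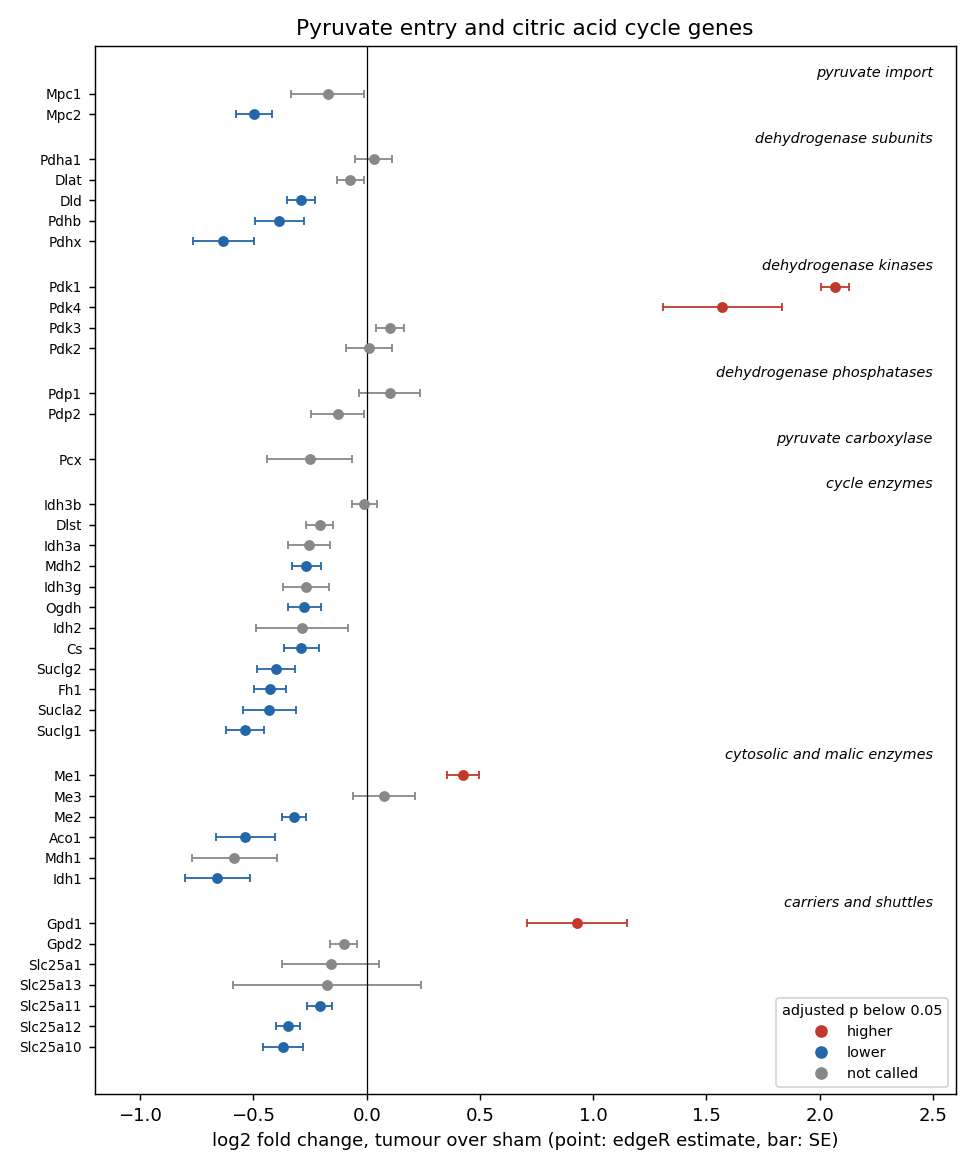
Log2 fold change of each of the 39 genes, tumour over sham (x axis; points are edgeR estimates over 3 against 3 libraries, bars their SE), with genes grouped by step of the pathway on the y axis; red points are called higher, blue lower and grey not called. Pdk1 and Pdk4 stand far to the right, and all 12 cycle enzymes lie left of 0.

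The dehydrogenase kinases held the largest changes. Pdk1, whose product phosphorylates and inactivates the dehydrogenase and which is a textbook target of the hypoxia-inducible factor, had 123, 124 and 122 CPM in tumour 1 to 3 and 30.7, 27.6 and 29.8 CPM in sham 1 to 3. Every tumour library was far above every sham library, and sham 3 lay among the other sham libraries. Its log2 fold change was 2.07 (SE 0.06, adjusted p = 4.88e-05 by edgeR; adjusted p of 1.45e-27 to 0.00203 with 1 library left out). Pdk4, the isozyme known to rise with fasting and fatty acid use, had 285, 284 and 291 CPM beside tumours and 118, 114 and 57.7 CPM after sham injection. The groups did not overlap, and sham 3 was the lowest library. Its log2 fold change was 1.57 (SE 0.26, adjusted p = 0.0102 by edgeR), a call that ended without tumour 1, tumour 2 or tumour 3 (adjusted p up to 0.0523).

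The other kinase genes showed no change that passed the test. Pdk2, the broadly expressed isozyme, had 65.1, 62.4 and 60.2 CPM beside tumours and 66.1, 67.3 and 52.9 CPM after sham injection, which overlapped (log2 fold change 0.01, SE 0.10, adjusted p = 0.952 by edgeR; -0.04 with unscaled library sizes, -0.02 without tumour 1 and -0.09 without sham 3). Pdk3, a further isozyme, had 31.3, 30.5 and 31.3 CPM against 29.7, 28.1 and 28.9 CPM, values that do not overlap but lie close together (log2 fold change 0.10, SE 0.06, adjusted p = 0.290 by edgeR). Pdk1 lies on chromosome 2 from 71873224 to 71903858 and Pdk4 on chromosome 6 from 5483351 to 5496309, in GENCODE M21 on GRCm38, the assembly also called mm10.

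**Figure D2:**
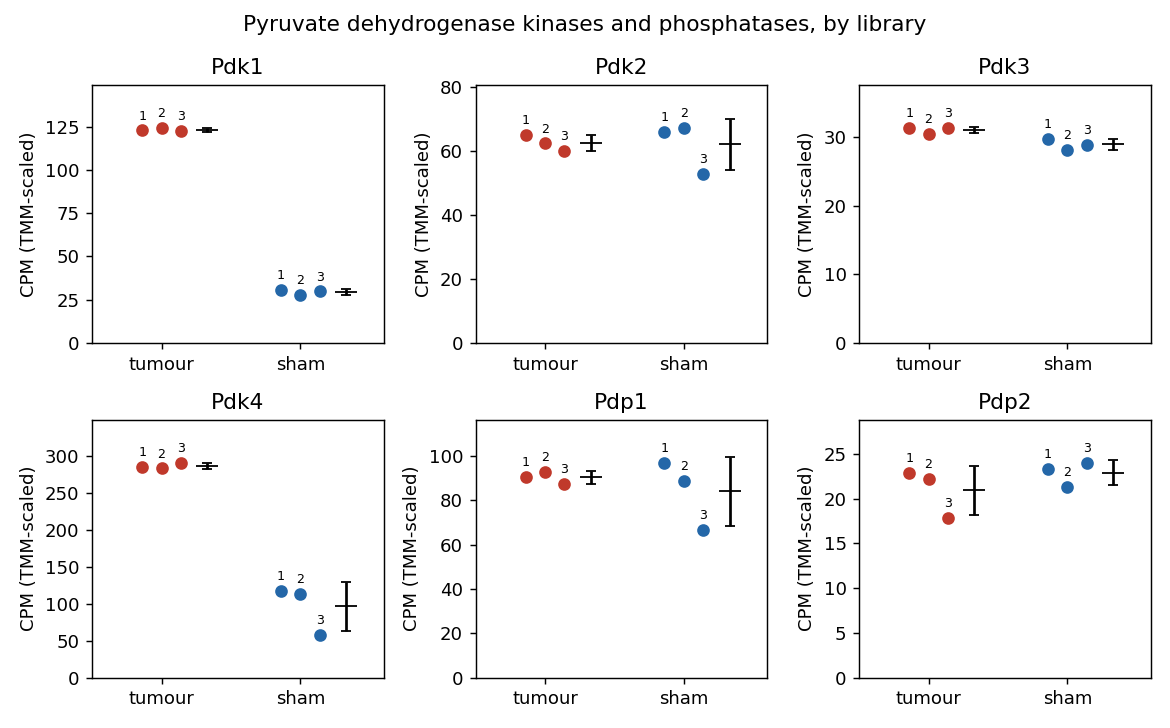
CPM scaled by TMM library sizes (y axis from 0, a separate scale for each gene) of the 4 kinase and 2 phosphatase genes in each library; numbers mark the replicate, and black bars are the mean and SD of 3 libraries. Pdk1 and Pdk4 are separated between groups, and sham 3 is the lowest sham library for Pdk4, Pdk2 and Pdp1.

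Because 2 of the 4 kinase genes rose and 2 did not pass the test, their promoters are shown side by side. Each window runs from 250 bases before to 50 after the most upstream RefSeq start site (GRCm38.p6), at chr2:71872974-71873273 on the plus strand for Pdk1 and on the minus strand at chr6:5496229-5496528 for Pdk4, chr11:95041322-95041621 for Pdk2 and chrX:93832101-93832400 for Pdk3. Capitals mark every match to ACGTG or GCGTG, the core letters of the hypoxia response element, on either strand (read as CACGT or CACGC on the strand printed, with overlapping matches joined).
Pdk1: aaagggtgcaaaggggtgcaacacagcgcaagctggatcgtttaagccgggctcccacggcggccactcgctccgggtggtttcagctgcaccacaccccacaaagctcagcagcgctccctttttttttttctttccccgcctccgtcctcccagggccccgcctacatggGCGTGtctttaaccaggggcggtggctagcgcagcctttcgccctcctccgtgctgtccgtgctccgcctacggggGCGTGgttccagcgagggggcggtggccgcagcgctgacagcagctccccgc
Pdk4: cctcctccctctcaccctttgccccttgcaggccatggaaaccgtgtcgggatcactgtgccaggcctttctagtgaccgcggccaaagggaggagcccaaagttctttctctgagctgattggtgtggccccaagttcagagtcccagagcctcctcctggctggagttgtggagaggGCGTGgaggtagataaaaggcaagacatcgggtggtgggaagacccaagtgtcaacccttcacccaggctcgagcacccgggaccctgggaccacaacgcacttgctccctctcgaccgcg
Pdk2: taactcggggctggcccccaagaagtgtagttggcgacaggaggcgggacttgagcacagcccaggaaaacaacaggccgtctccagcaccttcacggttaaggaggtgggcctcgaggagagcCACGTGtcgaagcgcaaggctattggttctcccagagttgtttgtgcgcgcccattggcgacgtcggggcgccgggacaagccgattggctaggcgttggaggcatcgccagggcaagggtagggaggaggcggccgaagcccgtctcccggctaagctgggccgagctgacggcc
Pdk3: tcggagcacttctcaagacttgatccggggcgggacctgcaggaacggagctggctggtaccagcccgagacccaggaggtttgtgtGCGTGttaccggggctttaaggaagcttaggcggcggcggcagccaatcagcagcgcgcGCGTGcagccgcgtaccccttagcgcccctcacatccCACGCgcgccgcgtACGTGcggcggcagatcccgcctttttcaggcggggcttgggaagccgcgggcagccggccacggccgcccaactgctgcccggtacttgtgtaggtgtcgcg
The Pdk1 window held 2 matches, both GCGTG, 78 and 2 bases before the start site. The Pdk4 window held 1, the Pdk2 window 2 that overlap in a single CACGTG, and the Pdk3 window 4. Of the 35 genes with a window, 22 held at least 1 match (62.9%), beside 62.3% of 10878 tested genes and 43.8% of all 27025 genes with a window. By call, 2 of 3 genes that rose, 9 of 16 that fell and 11 of 16 that were not called held one.

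Per transcript length, Pdk4 and Pdk1 held larger shares of the kinase transcripts in every tumour library than in any sham library. In TPM, the transcript abundance corrected for length in which different genes can be compared, the 4 kinases summed to 273, 261 and 272 in the tumour and to 132, 133 and 100 in the sham libraries, 2.21 times as much on average. These sums include noncoding transcripts, and short ones weigh more in TPM than in reads. Pdk4-202, a retained intron of 412 bases, held 8.43% of Pdk4 TPM in the tumour and 2.08% in the sham libraries. The coding Pdk1-201 held 76.2% and 84.7% of Pdk1 TPM. How far this moved the sums, shares and ratios was not tested. Pdk4 made up 56.5%, 55.7% and 59.3% of that sum in the tumour and 42.8%, 42.9% and 28.5% in the sham libraries. Pdk1 made up 17.4% ± 1.00 (SD, n = 3) of the sum in the tumour and 8.81% ± 2.74 in the sham libraries, so that it overtook Pdk2, which went from 32.7% ± 1.66 in the sham to 15.4% ± 0.749 in the tumour libraries. The ratio of Pdk1 to Pdk2 was 1.11, 1.16 and 1.13 in the tumour and 0.238, 0.218 and 0.348 in the sham libraries. Each of these shares and ratios separated the groups completely, with an exact two-sided permutation p of 0.1, the smallest that 3 against 3 libraries allow (0.112 after adjustment over the 19 shares, sums and ratios tested). Of these 19, 17 reached that smallest p, so it does not set the kinases apart.

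**Figure D3:**
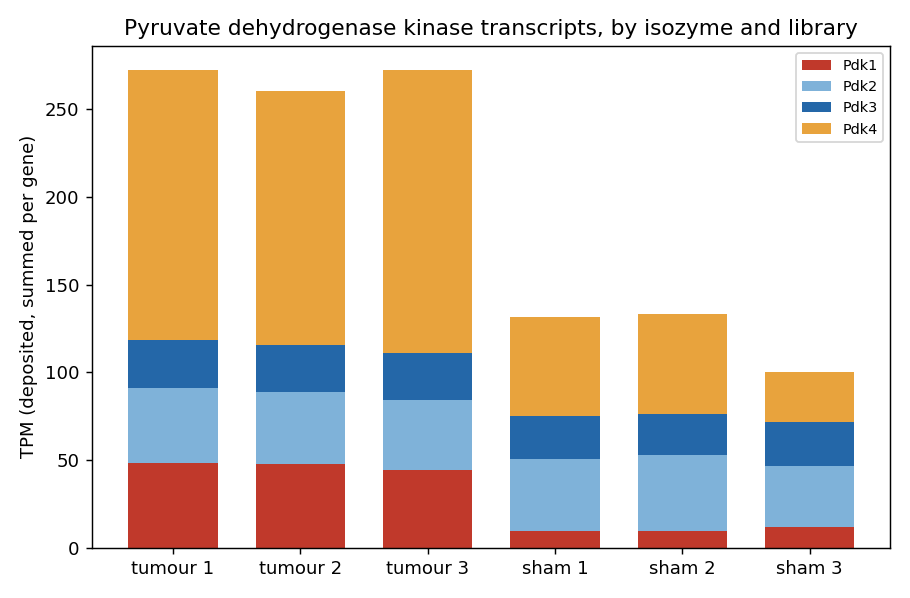
Deposited TPM of the 4 kinase genes, stacked, in each of the 6 libraries (y axis, TPM summed over the transcripts of a gene; no error bars, each bar is 1 library). The Pdk4 and Pdk1 segments are taller in all tumour libraries, while those of Pdk2 and Pdk3 are similar in all 6.

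The phosphatases, which reactivate the dehydrogenase, did not pass the test. Pdp1, the calcium-stimulated phosphatase, had 90.7, 92.8 and 87.3 CPM beside tumours and 96.9, 88.6 and 66.7 CPM after sham injection (log2 fold change 0.10, SE 0.14, adjusted p = 0.635 by edgeR; -0.04 without sham 3). Pdp2 had 22.8, 22.2 and 17.8 CPM against 23.3, 21.3 and 24.0 CPM (log2 fold change -0.13, SE 0.12, adjusted p = 0.474 by edgeR). Both overlapped between groups. Summed phosphatase TPM was 67.9, 69.2 and 65.3 in the tumour and 63.6, 58.2 and 52.2 in the sham libraries, 1.16 times as much on average and without overlap, unlike the CPM of either gene (exact permutation p = 0.1, adjusted p = 0.112). The transcript mix of Pdp1 differed too, with Pdp1-201, of 1881 bases, at 16.6% ± 4.33 of Pdp1 TPM in the tumour and 3.51% ± 6.08 in the sham libraries. Its part in the TPM difference was not tested. Summed kinase over summed phosphatase TPM was 4.01, 3.77 and 4.17 in the tumour and 2.07, 2.29 and 1.92 in the sham libraries, a complete separation (exact permutation p = 0.1, adjusted p = 0.112). Pdp1 supplied most phosphatase transcripts in both groups, 91.7% ± 0.888 (SD, n = 3) in the tumour and 89.5% ± 1.73 in the sham libraries.

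Of the 2 pyruvate carrier subunits 1 fell, beside 10.4% of all tested genes. Mpc2 had 40.0, 41.1 and 41.2 CPM beside tumours and 59.2, 61.4 and 52.0 CPM after sham injection. Every tumour library was below every sham library, with sham 3 in between (log2 fold change -0.50, SE 0.08, adjusted p = 0.00844 by edgeR; not called without tumour 1, tumour 2 or tumour 3, adjusted p up to 0.0538). Its partner Mpc1 had 77.0, 82.5 and 75.4 CPM against 99.3, 99.1 and 65.9 CPM. Sham 1 and 2 were above the tumour libraries and sham 3 below them, and the difference did not pass the test (log2 fold change -0.17, SE 0.16, adjusted p = 0.492 by edgeR). Mpc1 was the more abundant subunit per length in all libraries, with 2.47, 2.74 and 2.37 times the TPM of Mpc2 in the tumour and 2.28, 2.04 and 1.78 times in the sham libraries.

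Within the pyruvate dehydrogenase complex 3 of 5 subunit genes fell and 0 rose, beside 10.4% lower and 10.5% higher among all tested genes. Pdhx, which encodes the protein that anchors the dihydrolipoamide dehydrogenase in the complex, had 22.4, 20.8 and 21.8 CPM beside tumours and 38.0, 35.9 and 27.0 CPM after sham injection (log2 fold change -0.63, SE 0.14, adjusted p = 0.0214 by edgeR). Pdhb, the beta subunit of the decarboxylase, had 68.5, 69.1 and 64.9 CPM against 94.2, 96.0 and 74.3 CPM (-0.39, SE 0.11, adjusted p = 0.0477). Dld, the dihydrolipoamide dehydrogenase shared with the oxoglutarate dehydrogenase complex, had 89.8, 89.0 and 88.9 CPM against 114, 111 and 102 CPM (-0.29, SE 0.06, adjusted p = 0.0212). In all of them the groups did not overlap and sham 3 was the sham library nearest to the tumour libraries. The 3 calls were lost on leaving out any 1 library except sham 3, with adjusted p up to 0.168.

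The remaining subunit genes were not called. Pdha1, the alpha subunit that carries the sites phosphorylated by the kinases, had 444, 433 and 428 CPM beside tumours and 441, 438 and 399 CPM after sham injection (log2 fold change 0.03, SE 0.08, adjusted p = 0.830 by edgeR; -0.02 with unscaled library sizes, -0.01 with transcript length offsets and -0.02 without sham 3). At 261 ± 7.66 TPM (SD, n = 3) in the tumour and 255 ± 5.03 TPM in the sham libraries it was the second most abundant of the 39 genes in both groups. Summed kinase TPM per TPM of Pdha1 was 1.03 ± 0.0278 in the tumour and 0.477 ± 0.0643 in the sham libraries (n = 3 each, exact permutation p = 0.1, adjusted p = 0.112). Dlat, the acetyltransferase core, had 84.7, 81.0 and 78.4 CPM against 82.7, 86.4 and 87.4 CPM (log2 fold change -0.07, SE 0.06, adjusted p = 0.427 by edgeR; 0.02 with transcript length offsets).

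The enzymes of the cycle lay below 0 without exception in log2 fold change. Of 12 genes 7 fell and 0 rose, with a median of -0.28. Among all tested genes 10.4% were called lower and 10.5% higher. The succinyl-CoA ligase genes, whose product makes ATP or GTP at the substrate level, all fell. Suclg1, the shared alpha subunit, had 57.4, 58.9 and 58.1 CPM beside tumours and 91.3, 86.8 and 75.2 CPM after sham injection. No tumour library reached the sham range (log2 fold change -0.54, SE 0.08, adjusted p = 0.00791 by edgeR). The ATP-forming beta subunit gene Sucla2 had 78.9, 79.7 and 84.8 CPM against 127, 109 and 92.3 CPM (-0.43, SE 0.12, adjusted p = 0.0449). Suclg2, the GTP-forming beta subunit, had 56.0, 64.7 and 57.9 CPM against 80.5, 83.0 and 72.5 CPM (-0.40, SE 0.08, adjusted p = 0.0206). Both again showed separate groups, with sham 3 as the lowest sham library.

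Fumarase and the enzymes on either side of oxaloacetate fell as well. Fh1, which encodes fumarase, had 52.6, 57.1 and 52.8 CPM beside tumours and 77.8, 69.2 and 71.3 CPM after sham injection (log2 fold change -0.43, SE 0.07, adjusted p = 0.0101 by edgeR). For Cs, citrate synthase, the values were 228, 232 and 235 CPM against 270, 276 and 302 CPM (-0.29, SE 0.08, adjusted p = 0.0411). Sham 3 was here the library farthest from the tumour libraries. It was so too for Ogdh, the first enzyme of the oxoglutarate dehydrogenase complex, at 160, 159 and 161 CPM against 186, 186 and 209 CPM (-0.27, SE 0.07, adjusted p = 0.0414). Mdh2, mitochondrial malate dehydrogenase, had 139, 142 and 137 CPM against 162, 163 and 176 CPM (-0.27, SE 0.06, adjusted p = 0.0313).

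The cycle genes not called were those of the isocitrate dehydrogenases and Dlst. Dlst, the succinyltransferase of the oxoglutarate dehydrogenase complex, had 110, 106 and 107 CPM beside tumours and 120, 123 and 130 CPM after sham injection, which did not overlap (log2 fold change -0.21, SE 0.06, adjusted p = 0.0507 by edgeR). Among the 3 subunits of the NAD-dependent isocitrate dehydrogenase, Idh3a (-0.25, adjusted p = 0.1) and Idh3g (-0.27, adjusted p = 0.110) had similar values, whereas Idh3b had 106, 100 and 99.9 CPM against 103, 102 and 102 CPM (-0.01, SE 0.05, adjusted p = 0.918; 0.00 and 0.01 without tumour 2 or tumour 3). Idh2, the NADP-dependent mitochondrial enzyme, was by mean TPM the most abundant of the 39 genes in both groups. It had 341, 328 and 334 CPM against 468, 474 and 280 CPM. Sham 1 and 2 were above the tumour libraries and sham 3 below them (-0.29, SE 0.20, adjusted p = 0.359). Of the 7 calls, those of Suclg1 and Fh1 ended without tumour 1 or tumour 3, that of Suclg2 without tumour 1, tumour 3, sham 1 or sham 2, and those of Cs, Ogdh, Sucla2 and Mdh2 without any 1 library other than sham 3.

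**Figure D4:**
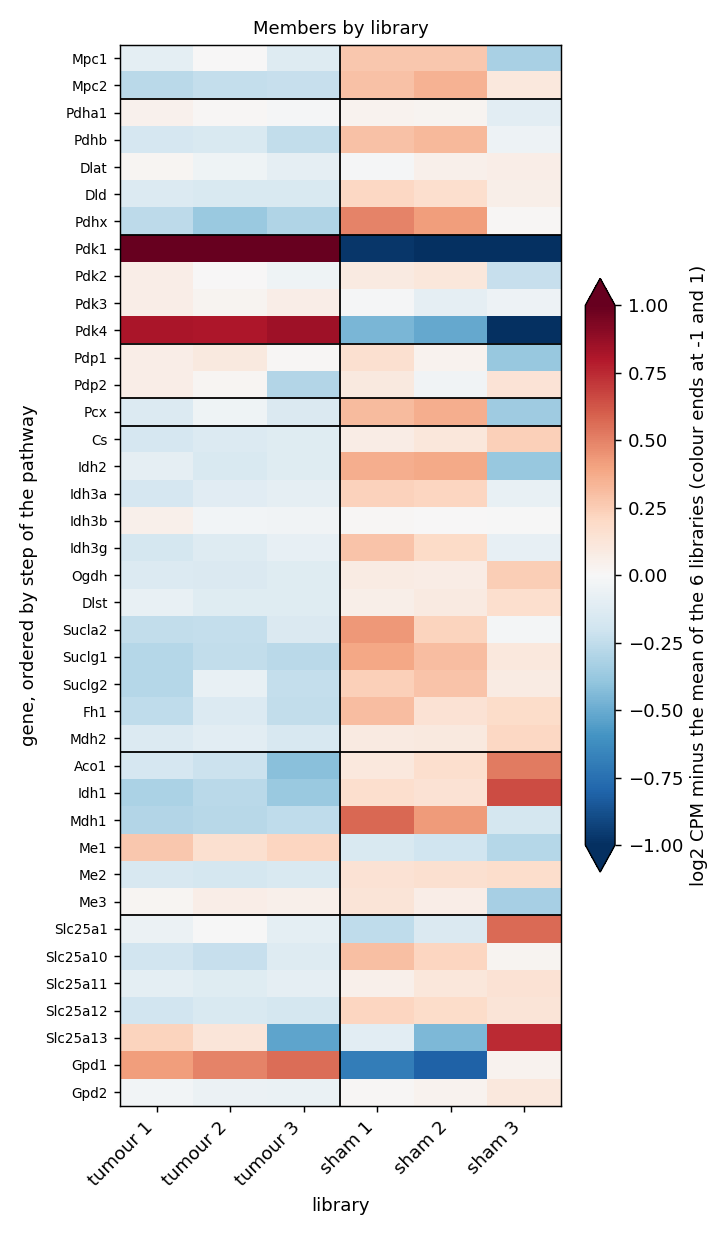
Log2 CPM of each of the 39 genes (rows, ordered by step, black lines between steps) in each library (columns) minus its mean over the 6 libraries; red is above and blue below that mean, and colours end at -1 and 1. The cycle enzymes, in the long middle block, are blue in nearly all tumour cells and red in sham 1 and 2, while sham 3 differs from gene to gene.

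Pyruvate carboxylase, the astrocytic route from pyruvate to oxaloacetate, was not called. Pcx had 159, 171 and 159 CPM beside tumours and 218, 226 and 138 CPM after sham injection. Sham 1 and 2 were above and sham 3 below all tumour libraries (log2 fold change -0.25, SE 0.19, adjusted p = 0.381 by edgeR).

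Among the cytosolic counterparts of cycle enzymes Idh1 and Aco1 fell and Mdh1 was not called, and the cytosolic malic enzyme rose. Idh1, the cytosolic NADP-dependent isocitrate dehydrogenase, had 137, 141 and 131 CPM beside tumours and 191, 188 and 267 CPM after sham injection, a fall (log2 fold change -0.66, SE 0.15, adjusted p = 0.0238 by edgeR; -0.48 without sham 3). Aco1, the cytosolic aconitase that binds iron-responsive elements when it lacks its iron-sulfur cluster, had 45, 43.5 and 37.7 CPM against 54.1, 56.7 and 72.3 CPM (-0.54, SE 0.13, adjusted p = 0.0324). For both genes sham 3 was the highest library. Mdh1, the cytosolic malate dehydrogenase of the malate-aspartate shuttle, had 189, 190 and 194 CPM against 344, 311 and 204 CPM. Its groups did not overlap, but sham 3 lay next to the tumour libraries and the gene was not called (-0.58, SE 0.19, adjusted p = 0.0715).

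The malic enzymes, which turn malate into pyruvate, differed in direction. Me1, the cytosolic NADPH-forming enzyme, had 223, 208 and 215 CPM beside tumours and 167, 161 and 152 CPM after sham injection (log2 fold change 0.43, SE 0.07, adjusted p = 0.00971 by edgeR). Me2, the mitochondrial enzyme, had 47.0, 46.7 and 47.4 CPM against 58.2, 58.8 and 59.4 CPM, with little spread in either group (-0.32, SE 0.05, adjusted p = 0.00943). Me3 had 15, 15.5 and 15.3 CPM against 16.2, 15.5 and 11.8 CPM (0.08, SE 0.14, adjusted p = 0.726; -0.02 with transcript length offsets and -0.05 without sham 3). In TPM, Me1 made up 72.9% ± 0.569 (SD, n = 3) of the malic enzyme transcripts in the tumour and 62.3% ± 0.815 in the sham libraries (exact permutation p = 0.1, adjusted p = 0.112). The calls of Idh1 and Me2 ended without tumour 1, tumour 2 or tumour 3, that of Aco1 without these or sham 2, and that of Me1 without tumour 1 or tumour 3.

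Among the carriers 3 of 5 fell, beside 10.4% of all tested genes. Slc25a12, the aspartate-glutamate carrier aralar of the malate-aspartate shuttle, had 74.2, 76.3 and 74.9 CPM beside tumours and 98.2, 96.2 and 92.4 CPM after sham injection (log2 fold change -0.35, SE 0.05, adjusted p = 0.00841 by edgeR). Its relative Slc25a13, or citrin, had 0.790 to 1.91 CPM in the 6 libraries and 1.90% and 1.68% of the summed TPM of the pair in the tumour and sham libraries. Slc25a11, the oxoglutarate-malate carrier of the same shuttle, had 68.3, 67.3 and 69.0 CPM against 75.7, 79.4 and 80.8 CPM (-0.21, SE 0.06, adjusted p = 0.0431). Slc25a10, the dicarboxylate carrier, had 29.9, 29.1 and 31.2 CPM against 42.1, 39.6 and 34.8 CPM (-0.37, SE 0.09, adjusted p = 0.0306). In each of the 3 the groups did not overlap. The citrate carrier gene Slc25a1 had 131, 135 and 127 CPM against 114, 123 and 202 CPM. Sham 3 was far above all others and the log2 fold change changed sign without it, from -0.16 (SE 0.21, adjusted p = 0.641) to 0.14 (adjusted p = 0.00383). Slc25a13, at few reads, had -0.18 with all libraries, 0.02 without tumour 3 and 0.24 without sham 3.

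The enzymes of the glycerol phosphate shuttle, which passes electrons from cytosolic NADH to the respiratory chain, differed from each other. Gpd1, the cytosolic enzyme, had 46.1, 48.7 and 50.9 CPM beside tumours and 21.4, 19.7 and 35.5 CPM after sham injection. Sham 3 lay between the other sham and the tumour libraries (log2 fold change 0.93, SE 0.22, adjusted p = 0.0313 by edgeR; 1.24 without sham 3). Gpd2, the mitochondrial enzyme, had 142, 139 and 139 CPM against 146, 148 and 156 CPM, close but separate values (-0.10, SE 0.06, adjusted p = 0.269). Per length, the ratio of Gpd1 to Gpd2 was 0.495, 0.567 and 0.592 in the tumour and 0.210, 0.196 and 0.379 in the sham libraries (exact permutation p = 0.1, adjusted p = 0.112). The calls of Gpd1, Slc25a10 and Slc25a11 were lost on leaving out any 1 library except sham 3, and that of Slc25a12 without tumour 1, tumour 2 or tumour 3.

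The comparison was also read against each kind of sham library. Relative to sham 1 and 2 the tumour mean of log2 CPM was lower in 32 of the 39 genes, with a median difference of -0.24. Relative to sham 3 it was lower in 27, with a median of -0.19. Over all 14359 tested genes it was lower in 7288 and 7164, with medians of -0.01 and 0.00. For the cycle enzymes the counts were 12 and 11 of 12, the exception being Idh2. Pdk1 was higher by 2.08 and 2.05 on the log2 scale, almost the same against both, Pdk4 by 1.31 and 2.31, Gpd1 by 1.24 and 0.45 and Me1 by 0.39 and 0.50. Sham 3 lay between the tumour libraries and sham 1 and 2 in 12 genes, above all other libraries in 13 and below them in 9. Each of the 17 genes that fell was lower against both, which follows from tumour and sham values that do not overlap and is no separate result.

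**Figure D5:**
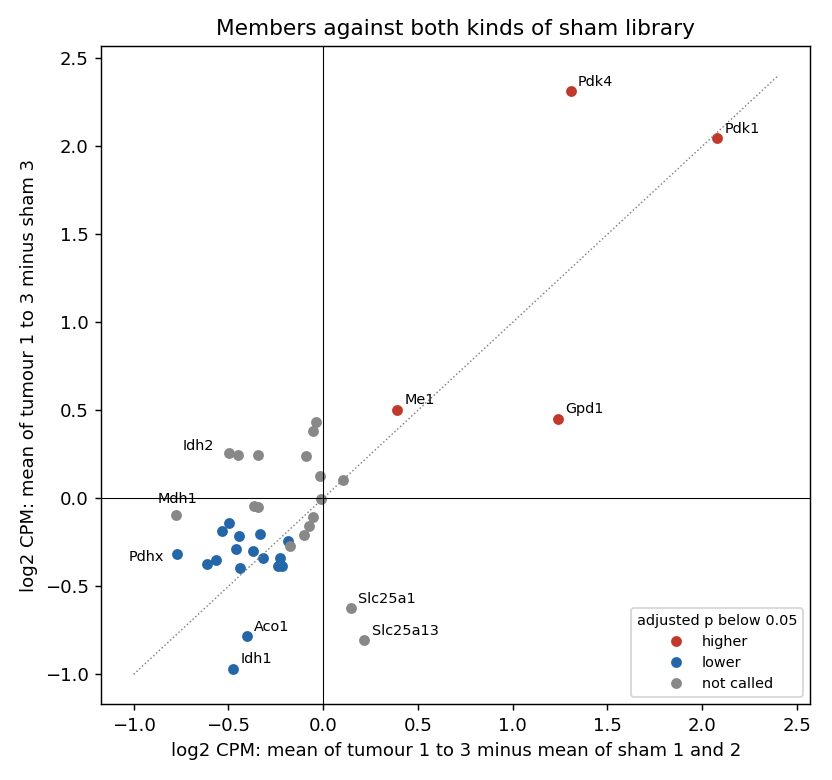
Difference in log2 CPM between the mean of the 3 tumour libraries and the mean of sham 1 and 2 (x axis) or sham 3 (y axis), one point per gene, coloured by call; the dotted line marks equal differences and no error is drawn because sham 3 is 1 library. All blue points lie at the lower left and all red points at the upper right, as they must where tumour and sham values do not overlap. Pdk1 lies near the dotted line.

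Per length, the pathway covered a wide range of levels in both groups. Idh2, Pdha1, Mdh1 and Mpc1 had over 200 TPM in the sham libraries, at 336 ± 86.2, 255 ± 5.03, 244 ± 48.4 and 226 ± 45.3 TPM (SD, n = 3). Within each sham library Idh2 was above Mdh1 and Mdh1 above Mpc1. In sham 3 Pdha1, at 249 TPM, was above Idh2, at 236 TPM. Slc25a13 was lowest at 0.811 ± 0.333 TPM, followed by Pdp2 at 6.06 ± 0.468 TPM. The genes that moved most in this order were Pdk4, 25th in the sham and 6th in the tumour libraries, and Pdk1, 37th and 24th.

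For most genes a single transcript carried the reads. Pdk1-201, of 5185 bases, held 90.7% ± 1.52 (SD, n = 3) of the Pdk1 reads in the tumour and 94.7% ± 4.75 in the sham libraries, and the noncoding Pdk1-208 held 6.86% ± 0.839 and 3.26% ± 3.16. Pdk4-201 held at least 99.2% of Pdk4 reads in every library. Of Pdk4 TPM it held 90.1% ± 3.12 in the tumour and 96.5% ± 2.72 in the sham libraries. Pdp1 was spread over 6 coding transcripts, of which Pdp1-203 held 32.3% ± 2.02 in the tumour and 41.7% ± 7.39 in the sham libraries. In Slc25a12 the annotated nonsense-mediated decay transcript Slc25a12-207 held 55.4% ± 4.13 and 52.5% ± 3.06, and the full-length coding Slc25a12-206 held 41.0% ± 1.64 and 44.5% ± 3.50. Shares of transcripts that overlap are estimates by Salmon. Of the main transcripts 24 shared no stretch of 31 bases with a listed transcript of another gene, and 6 shared over 5% of such stretches: Pdhb (41.9%, with Gm6123), Me1 (35.3%, mostly with Gm7049), Mpc1 (29.0%, with Mpc1-ps), Suclg2 (28.1%, mostly with Gm15163), Pdha1 (20.8%, mostly with the neighbouring Map3k15) and Cs (8.60%, with Csl). The reads assigned to these other genes were at most 1.37% of those of the member, but how reads were divided between the copies is less certain for these 6.

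Other genes of the pathway, a fixed list of 51 of which 48 were tested, moved in both directions. Of these 5 rose (10.4%, near the 10.5% of all tested genes) and 9 fell (18.8%, beside 10.4% of all tested genes), with a median log2 fold change of -0.12. The genes not tested were Pck1, Pklr and Acod1, with 0, 9 and 0 reads in all libraries. The genes Sdhd (log2 fold change -0.40, SE 0.07, adjusted p = 0.0112 by edgeR) and Sdhc (-0.26, SE 0.06, adjusted p = 0.0206), which encode the membrane anchors of succinate dehydrogenase, fell. The subunit gene Sdhb fell as well (-0.24, SE 0.06, adjusted p = 0.0447), while Sdha, the flavoprotein, had -0.17 (SE 0.09, adjusted p = 0.237) and was not called. Pcca, a subunit of propionyl-CoA carboxylase (-0.52, SE 0.07, adjusted p = 0.00409), and Acat1, the mitochondrial acetoacetyl-CoA thiolase (-0.37, SE 0.06, adjusted p = 0.00769), fell too.

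The 5 companions that rose were Ldha, Pkm, Slc16a3, Pck2 and Pdpr. Ldha, the lactate dehydrogenase subunit of glycolytic cells, had 1163 ± 4.78 CPM beside tumours and 458 ± 55.2 CPM after sham injection (n = 3; log2 fold change 1.34, SE 0.12, adjusted p = 0.00135 by edgeR). Pkm, pyruvate kinase, had 1808 ± 6.50 against 923 ± 192 CPM (0.97, SE 0.17, adjusted p = 0.0108). Slc16a3, which encodes the lactate exporter MCT4, had the largest change, with 88.6, 87.6 and 86.7 CPM against 1.80, 1.62 and 2.90 CPM (5.38, SE 0.20, adjusted p = 7.75e-05). Pck2, mitochondrial phosphoenolpyruvate carboxykinase, rose from 36.8 ± 4.95 to 83.1 ± 4.95 CPM (1.18, SE 0.11, adjusted p = 0.00166), and Pdpr, the regulatory subunit of the dehydrogenase phosphatase, rose 1.22-fold (0.28, SE 0.07, adjusted p = 0.0344). Of the genes named here Slc16a3, Ldha, Pck2 and Pcca kept their call whichever library was left out. The calls of Sdhb, Sdhc and Pdpr ended when any 1 library except sham 3 was left out. Those of Pkm and Sdhd ended without tumour 1, tumour 2 or tumour 3, and that of Acat1 without tumour 1 or tumour 3. Slc16a3, Ldha and Pkm were known from earlier results of these data. Sequence shared with other genes was not measured for the companions.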

How the data were processed

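The submitters' processing notes name Salmon (0.8.2), DESeq2 (1.28.1) and mm10, with no order or role. Per the file headers, the authors deposited for each transcript its length and effective length in bases, its TPM and its estimated count of reads; the kit, strandedness and bias settings are not stated there, and antisense or overlapping genes cannot be separated without strand. Estimated counts were summed per gene through GENCODE M21 (112841 of 113116 transcripts matched by identifier without version) and rounded. Tests used edgeR 4.0.16 in R 4.3.3: genes passing filterByExpr (at least 10 reads, total at least 15), TMM scaling, a robust quasi-likelihood model holding only the group, and Benjamini-Hochberg adjustment over all tested genes at 0.05. The fits were tested on simulated counts with known changes. Those counts were drawn independently for each library, with none standing apart as sham 3 does. They therefore cannot show how reliable the calls are with the spread seen here. SEs are the log2 fold change over the square root of F and so restate the test; CPM of single genes uses TMM library sizes, that of marker sums the total reads. Shared sequence and promoter matches were searched with Python 3.11.15. DESeq2 1.42.0 and limma-voom (limma 3.58.1) were alternatives. The genes, their lists and the tests were chosen with earlier results of these data known, among them that Pdk1, Ldha, Pkm and Slc16a3 rose. Values per library were set out for every called gene, all kinases and phosphatases and the 2 most abundant genes of each step, and for companions up to 10 called genes with the smallest p. Further genes of the 39 are named to account for each. Sdha and Sdhb are named beside the other succinate dehydrogenase genes. 1 companion gene is not reported here.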

Additional observations from a re-analysis of the deposited data

How the results depend on the processing

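Under RLE size factors, DESeq2, limma-voom and unscaled library sizes (chosen after seeing the data), 20 or all of the 21 calls among the 39 genes were kept; 18 were kept without a filter on low counts and 16 with transcript length offsets. Unscaled library sizes moved the median of all genes from -0.02 to -0.07, and 9.18% of genes were then called higher and 13.5% lower. Leaving out 1 library gave 1 to 5 of the 39 genes higher and 0 to 24 lower, 3 to 9 companions higher and 1 to 25 lower, and 536 to 4250 of all genes higher and 355 to 4179 lower; the upper ends are without sham 3, where 2 near-coinciding sham libraries remain. With the near libraries summed, 0 of the 39 genes, 0 companions and 0 of all genes were called in either direction by edgeR or limma-voom, and DESeq2 called 1 of the 39 higher and 0 lower, 1 companion higher and 0 lower, and 79 of all genes higher and 10 lower. These fits have fewer samples. Deviations of same-numbered libraries from their group means correlated at -0.0194 to 0.00785. Because sham 3 stands apart and dominates the sham deviations, this check could miss a pairing by replicate number and cannot decide whether there was one. With the replicate block 4 of the 39 genes were higher and 4 lower, 3 companions were lower, and 829 of all genes were higher and 607 lower. With transcript length offsets 5 companions were lower; the cause was not tested. Signs changed for 8 genes, none of them called with all libraries. With unscaled library sizes the log2 fold change was -0.0218 for Pdha1 and -0.0423 for Pdk2, and with transcript length offsets it was -0.00729 for Pdha1, 0.0162 for Dlat and -0.0241 for Me3. With 1 library left out it ranged from -0.0163 to 0.0507 for Pdha1, -0.0937 to 0.0680 for Pdk2, -0.0408 to 0.211 for Pdp1, -0.0359 to 0.00523 for Idh3b, -0.0540 to 0.158 for Me3, -0.316 to 0.142 for Slc25a1 and -0.412 to 0.239 for Slc25a13; the cause was not tested. Depth limits Slc25a13, at 1 to 2 CPM, more than any other of the 39 genes.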
